A study of Mus musculus with 6 samples.

Results

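The nuclear receptor superfamily was examined by RNA sequencing of primary brown adipocytes, fat cells grown from precursors of brown adipose tissue. It was taken as 46 genes chosen by name, each standing as its RefSeq transcript with the highest mean over the cultures, out of 22466 genes with RefSeq transcripts. Of the 46 genes, 31 reached the mean of 0.5 RPKM (reads per kilobase of transcript, scaled to the mapped reads of the library) required to compare genotypes, 9 had some reads below it and 6 had 0 reads in each culture. Precursors came from the stromal-vascular fraction of interscapular brown fat of male WT and Ucp1-KO mice, which had the strain label 129SvEvS1 and were 5 to 6 weeks old. Independent preparations gave 3 cultures of WT cells, numbered 10, 11 and 12, and 3 of Ucp1-KO cells, numbered 13, 14 and 15. Both genotypes were induced with isobutylmethylxanthine, indomethacin, dexamethasone, insulin, T3 and rosiglitazone and then kept in insulin, T3 and rosiglitazone. Dexamethasone, T3 and rosiglitazone are ligands of the glucocorticoid receptor, the thyroid hormone receptors and PPARγ, so that every level below is that of cells exposed to these ligands, to dexamethasone during induction and to the others throughout. The labels name no other treatment.

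Nuclear receptors are transcription factors that bind DNA, mostly as dimers, and alter the expression of nearby genes when a lipophilic ligand such as a steroid, thyroid hormone, a retinoid or a fatty acid fills their ligand pocket. Many of them need a retinoid X receptor as partner, and so-called orphan members have no established ligand. In brown fat, PPARγ drives the differentiation of adipocytes, PPARα and the estrogen-related receptors act on genes of fatty acid oxidation and mitochondria, and thyroid hormone and retinoic acid receptors bind enhancers of thermogenic genes including Ucp1.

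The libraries held between 14989604 and 17727653 reads, and among the receptors tested Nr1i3 had the fewest reads, 10 to 29 a culture. Ucp1, the deleted gene, had 1775, 981 and 1157 RPKM in the WT and 307, 409 and 398 RPKM in the Ucp1-KO cultures, in the direction of the labels. As the study describes, the knockout locus still yields a shortened transcript from which no protein is made, so that its RPKM is not functional Ucp1. The Ucp1 log2 fold change was -1.78 (standard error 0.24, limma unadjusted p = 0.000157, limma adjusted p = 0.868). The deleted gene itself thus did not pass the limma comparison, and 0 calls among receptors do not show equal levels. The study's own comparison of these cultures, made with DESeq2, did call Ucp1 as lower in Ucp1-KO cells. Brown adipocyte markers were abundant throughout, with Fabp4, the fatty acid-binding protein of fat cells, between 26399 and 29312 RPKM, and 9 of 9 markers tested. Their median log2 fold change was 0.13, and Ucp1 was the marker with the lowest and Cidea, a lipid droplet protein, that with the highest value. Markers of other cells were present as well. The summed level of 6 macrophage markers was 251 RPKM in Ucp1-KO replicate 14, 81.4 RPKM of it from Cd68, and between 14 and 84.4 RPKM in the other cultures. That of 5 endothelial markers lay between 2.76 RPKM in WT replicate 10 and 33.2 RPKM in WT replicate 11. Skeletal muscle markers summed to at most 10.7 RPKM, and Myh4, a myosin of fast muscle fibres, stayed at or below 0.0444 RPKM. In cultures of mixed cells, fewer cells of a type and less RNA per cell cannot be told apart.

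Receptor levels spanned more than 2 orders of magnitude in WT cells. Of the 46 genes, 12 had a WT mean of at least 10 RPKM, 16 lay between 1 and 10 RPKM and 18 below 1 RPKM. The median over the 31 genes tested was 7.32 RPKM, against 7.45 RPKM over the 12259 genes tested in all. Summed over the superfamily, WT cells held 481 RPKM, of which Pparg contributed 25.4% and the leading 5 genes 58.6%. In descending order these 5 were Pparg, Esrra, Ppara, Nr1h3 and Nr3c1, which encode PPARγ, the estrogen-related receptor ERRα, PPARα, the oxysterol receptor LXRα and the glucocorticoid receptor. They were followed by Nr1h2, Nr2f6, Rxrb, Nr1d1, Ppard, Thra and Rxra at 27.1 to 11 RPKM. The ranges of the WT cultures were apart for 10 of the 30 pairs of neighbours in this order, so that Pparg stood clear of Esrra, whereas Esrra and Ppara, or Ppara and Nr1h3, overlapped.

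**Figure D1:**
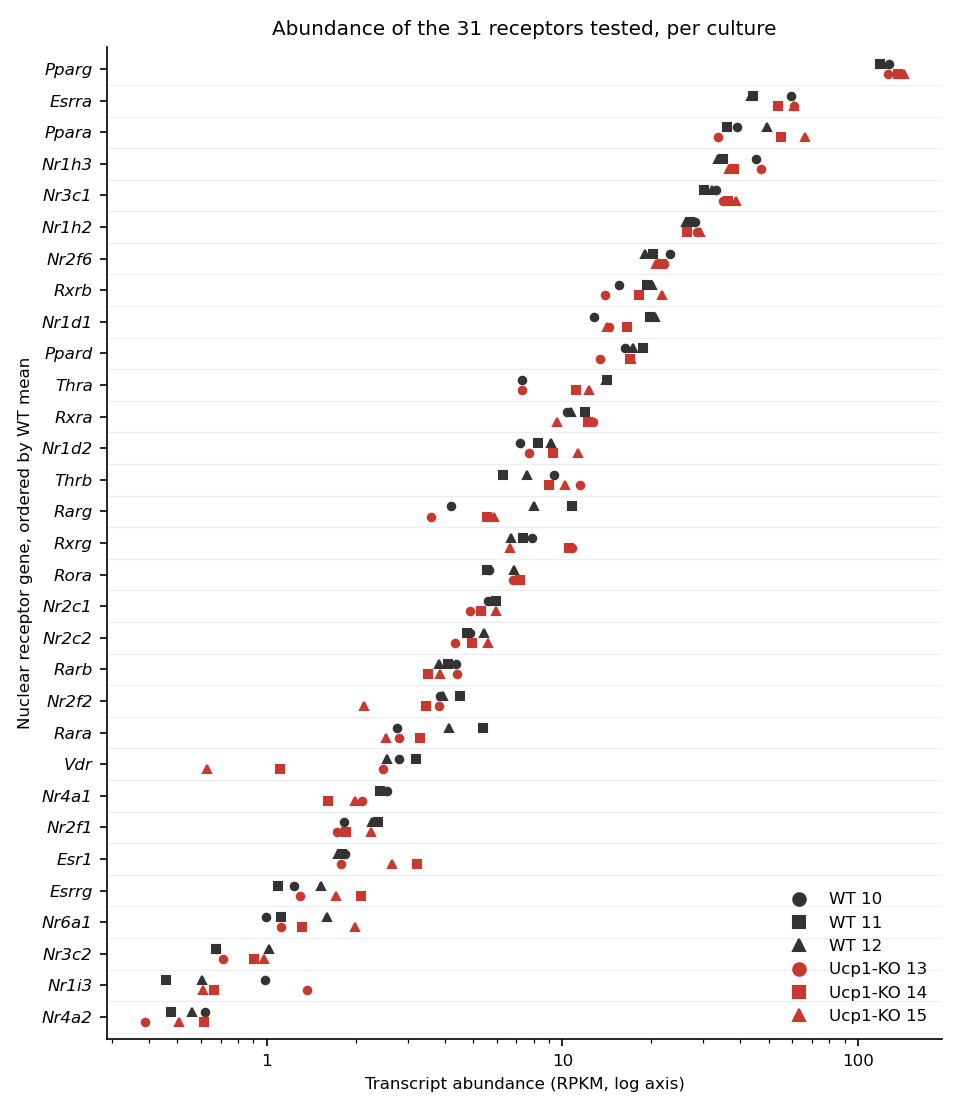
Transcript abundance in RPKM (log axis) of the 31 nuclear receptor genes tested, in the order of their WT mean, with 1 symbol per culture (WT in dark grey, Ucp1-KO in red). Pparg leads with values between 119 and 143 RPKM, and Vdr shows the widest gap between cultures, down to 0.628 RPKM in Ucp1-KO replicate 15.

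None of the 31 genes passed the comparison of genotypes, which was made with limma on log2(RPKM + 1) over 16865 RefSeq transcripts. At an adjusted p below 0.05, 0 receptors and 0.0% of all transcripts were called. The lowest limma adjusted p was 0.868 for receptors and transcripts alike. The study's own DESeq2 comparison called a short list of genes, with Ucp1 and Lum among them and no nuclear receptor gene. The 0 calls are those of limma and do not mean that the cultures hold no differential gene. Why the methods differ was not tested. At an unadjusted p below 0.05 there were 2 receptors, Vdr and Thrb, or 6.45% of those tested, against 5.54% of all transcripts, and limma-voom on recovered reads called 0 receptors at an adjusted p below 0.05 as well. The genotypes did not overlap for 4 receptors or 12.9%, against 11.2% of all transcripts. Nr3c1 was higher in each Ucp1-KO culture than in any WT culture, as were 6.04% of all transcripts, and Nr2f2, Vdr and Nr4a1 were lower in each, as were 5.15% of all transcripts. The shares of 6.45% and 12.9% were near those of all transcripts. The 2 receptors at an unadjusted p below 0.05 became 0 without WT replicate 11, 1 without Ucp1-KO replicate 14 or 15, 5 without WT replicate 10 and 6 without Ucp1-KO replicate 13. With median-of-ratios scaling there was 1, lower in Ucp1-KO cells, so that Thrb was no longer called. The median log2 fold change was 0.05 over the receptors and -0.0016 over all transcripts, with 17 receptors above and 14 below 0. Positive values mean higher abundance in Ucp1-KO cells, and adding 1 RPKM shrinks the values of scarce receptors. The absolute log2 fold change exceeded 0.5 for 1 receptor, Vdr, and for 3.87% of all transcripts. Rarg passed this bound as well with limma-voom on recovered reads (-0.55) or with 0.1 RPKM added (-0.54).

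**Figure D2:**
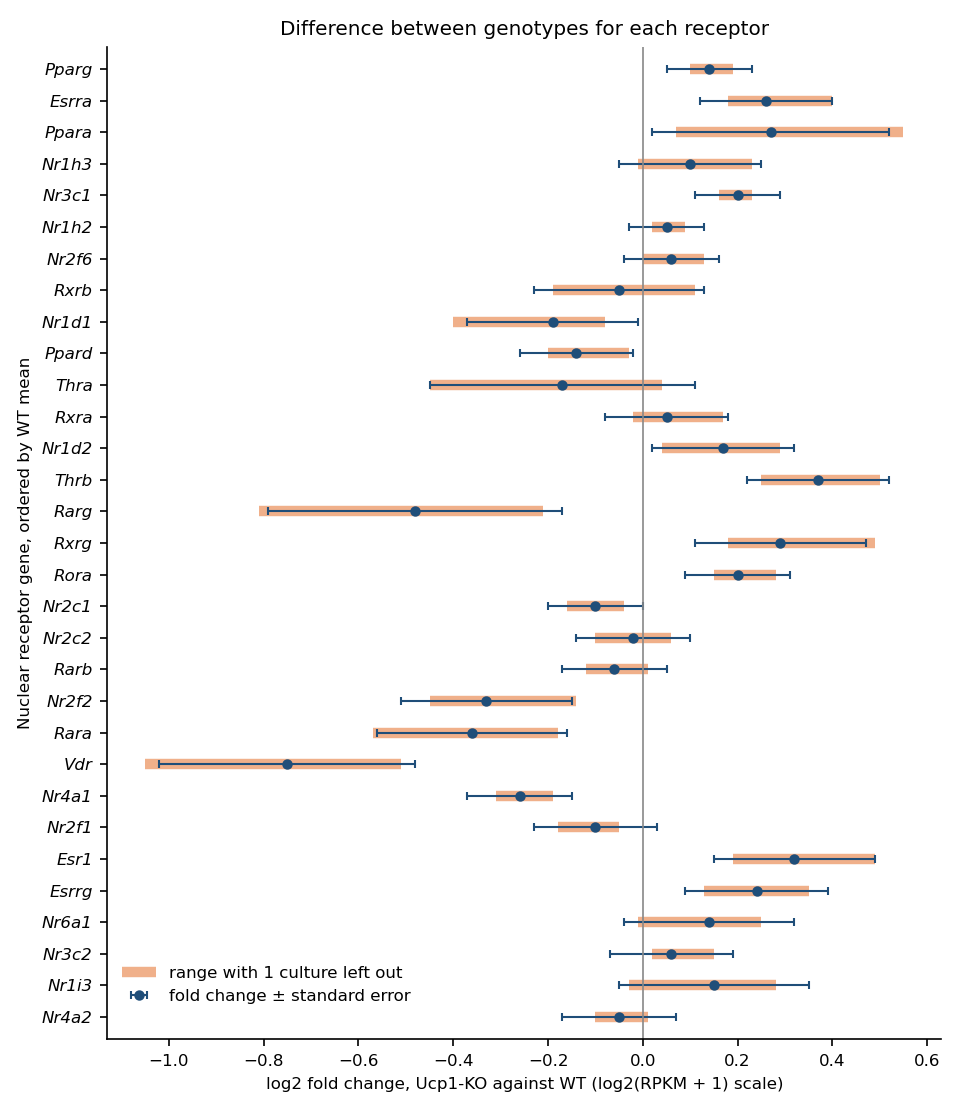
Log2 fold change of each receptor between Ucp1-KO and WT cells on the log2(RPKM + 1) scale, with its standard error (thin bars, 3 cultures per genotype) and the range when 1 culture at a time was left out (wide bars). Points lie on both sides of 0, from -0.75 for Vdr to 0.37 for Thrb, and many of the ranges touch or cross 0.

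Receptors of fatty acids and related lipids formed the most abundant subfamily. Pparg encodes PPARγ, the receptor of rosiglitazone and master regulator of adipocytes, and lies on the forward strand of chromosome 6 (115360951 to 115490399, GRCm38). It had 127, 119 and 120 RPKM in WT and 126, 136 and 143 RPKM in Ucp1-KO cultures, and the highest WT culture lay above the lowest Ucp1-KO culture. The WT mean of 122 ± 4.62 RPKM and the Ucp1-KO mean of 135 ± 8.46 RPKM (SD, n = 3 each) gave a log2 fold change of 0.14 (standard error 0.09). By WT mean it was gene number 414 of 22466. Its 2 RefSeq transcripts differ in their start, and both rows held nearly equal numbers of reads, so that the table does not separate them.

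RefSeq places 3 promoters at this gene, of which the first and the last are shown because they precede the starts used by its 2 transcripts. Each sequence runs from 250 bases before to 50 bases after the start (forward strand, GRCm38.p6). Capitals mark matches to AGGTCA, the core element of many nuclear receptors, or to TTGCNNAA, a core of C/EBP sites, searched on both strands.
Pparg, chr6:115360894-115361193: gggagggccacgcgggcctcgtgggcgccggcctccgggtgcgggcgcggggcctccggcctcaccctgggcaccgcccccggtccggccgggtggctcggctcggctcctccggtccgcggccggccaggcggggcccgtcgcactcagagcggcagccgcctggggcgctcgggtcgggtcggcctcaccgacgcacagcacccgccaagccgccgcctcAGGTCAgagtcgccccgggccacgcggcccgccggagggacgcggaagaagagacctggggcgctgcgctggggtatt
Pparg, chr6:115421816-115422115: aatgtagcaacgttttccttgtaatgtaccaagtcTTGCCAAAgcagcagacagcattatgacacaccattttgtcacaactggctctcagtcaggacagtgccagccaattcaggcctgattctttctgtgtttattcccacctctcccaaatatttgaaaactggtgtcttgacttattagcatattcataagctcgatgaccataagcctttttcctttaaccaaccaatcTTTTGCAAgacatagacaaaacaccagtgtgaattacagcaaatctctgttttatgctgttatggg
The upstream promoter held AGGTCA from base -28 to -23 before the start, and the downstream promoter held TTGCNNAA at -215 to -208 and at -16 to -9. The remaining promoter, at chr6:115362099-115362398, held AGGTCA as well. Over 63 promoters of 42 of the receptor genes, 19.0% held AGGTCA against 16.3% of all 32851 promoters, and 19.0% held TTGCNNAA against 10.8%. The E-box CACGTG occurred in 9.52% against 7.15%. Such matches are letters in a window and no evidence of binding.

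Ppara, whose product drives fatty acid oxidation, had 38.9, 35.9 and 49.2 RPKM in WT and 33.6, 54.8 and 66.3 RPKM in Ucp1-KO cultures. The lowest and the highest of these were both Ucp1-KO cultures. Its log2 fold change of 0.27 (standard error 0.25) lay between 0.07 without replicate 15 and 0.55 without replicate 13. Ppard, the more widely expressed PPARδ, had 16.3, 18.7 and 17.3 RPKM in WT and 13.4, 16.9 and 17.1 RPKM in Ucp1-KO cultures, which overlapped. Within the subfamily, Pparg made up 67.6% ± 2.92, Ppara 22.8% ± 3.18 and Ppard 9.66% ± 0.970 of the summed RPKM in WT cells (SD, n = 3). The Ppard share of 7.83% ± 0.311 in Ucp1-KO cells was below every WT value (exact permutation test, two-sided, p = 0.10, below which 3 against 3 cannot go, adjusted p = 0.90 over 26 shares). It was the 1 share of 26 in 11 subfamilies for which the genotypes did not overlap.

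Of 15 PPAR target genes, 15 were tested, 11 with positive and 4 with negative values and a median log2 fold change of 0.13. At an unadjusted p below 0.05, 2 were higher in Ucp1-KO cells and 0 lower, against 2.30% and 3.24% of all transcripts, and 0 passed at an adjusted p below 0.05. Fabp3, the fatty acid-binding protein of heart and muscle that brown fat shares, had 11.5, 5.71 and 12.7 RPKM in WT and 17.0, 22.1 and 20.8 RPKM in Ucp1-KO cultures. Each Ucp1-KO culture was above each WT culture (log2 fold change 0.99, standard error 0.27, limma adjusted p = 0.868). Pck1, which feeds glycerol synthesis in fat, was at 0.35 (standard error 0.14) and overlapped.

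LXR and the estrogen-related receptors came next. Nr1h3 (LXRα) had 45.1, 34.8 and 33.6 RPKM in WT and 47.1, 38 and 36.5 RPKM in Ucp1-KO cultures, and Nr1h2 (LXRβ) had 27.1 ± 1.03 and 28.1 ± 1.52 RPKM (SD, n = 3 each). WT replicate 10 and Ucp1-KO replicate 13 were the 2 highest cultures for Nr1h3, 1 of each genotype, while Nr1h2 varied little. Of 8 LXR targets tested, 2 were positive and 6 negative, with a median of -0.24 and 0 at an unadjusted p below 0.05. Scd1, a desaturase and the most abundant of them, had 11285, 9977 and 9446 RPKM in WT and 8476, 8612 and 6632 RPKM in Ucp1-KO cultures, which did not overlap (log2 fold change -0.38, standard error 0.19, limma adjusted p = 0.871). Lpcat3, which remodels phospholipids, did not overlap either (-0.29, standard error 0.13, limma adjusted p = 0.868). The lowest value was that of Pltp, a phospholipid transfer protein, at -0.73 (standard error 0.35), and the highest that of Abca1, a cholesterol exporter, at 0.02 (standard error 0.12).

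Esrra (ERRα), a constitutively active receptor of mitochondrial genes, had 59.3, 44.2 and 43.4 RPKM in WT and 60.5, 53.5 and 60.7 RPKM in Ucp1-KO cultures. WT replicate 10 fell within the Ucp1-KO range, and the log2 fold change was 0.26 (standard error 0.14). It was 0.40 without WT replicate 10. Esrrg (ERRγ) was far lower, at 1.28 ± 0.225 and 1.70 ± 0.398 RPKM (WT and Ucp1-KO, SD, n = 3 each), so that Esrra made up 97.1% of the ERR sum in WT cells, and Esrrb had 33 and 27 reads in total in WT and Ucp1-KO cells. All 8 ERR targets were tested, with a median of 0.08 and 1 at an unadjusted p below 0.05, against 5.54% of all transcripts. This was Perm1, a regulator of oxidative genes in muscle, which had 3.69, 2.09 and 3.02 RPKM in WT and 3.95, 5.80 and 7.45 RPKM in Ucp1-KO cultures without overlap (log2 fold change 0.76, standard error 0.24, limma adjusted p = 0.868). Atp5b, the ATP synthase β subunit, was the most abundant of these targets and had the lowest value, at -0.04 (standard error 0.12).

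The retinoid X receptors Rxra, Rxrb and Rxrg are the common partners of PPAR, LXR, thyroid hormone, retinoic acid, vitamin D, bile acid and xenobiotic receptors. WT cells had an RXR sum of 36.7 ± 2.49 RPKM, and Ucp1-KO cells 38.7 ± 1.83 RPKM (SD, n = 3 each). The 14 genes of these partners summed to 285 ± 4.10 and 305 ± 23.1 RPKM. The ratio of partners to RXR in RPKM, which is already corrected for transcript length, was 7.80 ± 0.635 and 7.89 ± 0.646. This ratio lay between 7.25 and 8.64 in the 6 cultures and overlapped between genotypes (exact two-sided permutation test, p = 0.80). Rxrb led with 49.9% ± 3.75 of the RXR sum in WT cells, ahead of Rxra with 30.0% ± 1.26 and Rxrg with 20.1% ± 2.87 (SD, n = 3). In Ucp1-KO cells the share of Rxrb ran from 37.0% in replicate 13 to 57.2% in replicate 15, and that of Rxrg from 28.9% to 17.5%, so the spread within this genotype exceeded the difference between genotypes.

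**Figure D3:**
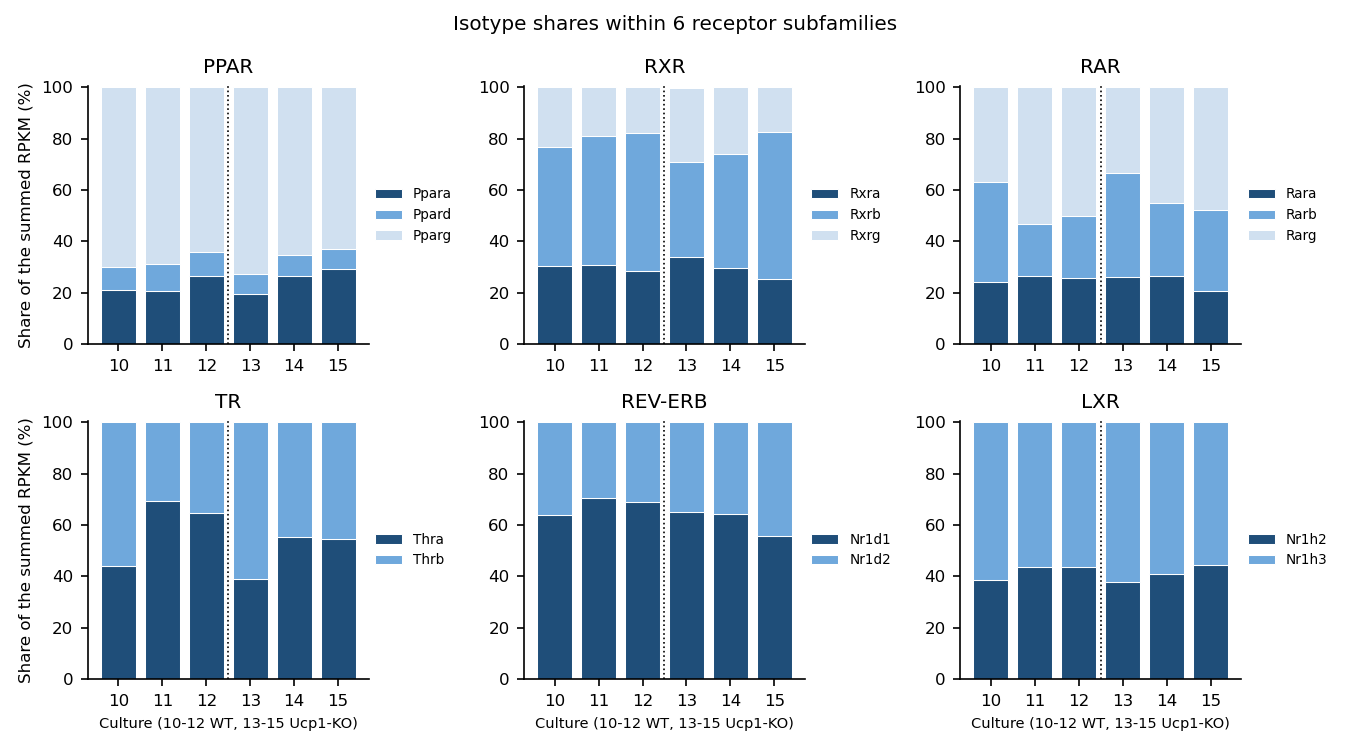
Share of each isotype in the summed RPKM (%) of 6 receptor subfamilies, 1 bar per culture (10 to 12 WT, 13 to 15 Ucp1-KO, divided by the dotted line). Pparg makes up 63.1% to 72.8% of the PPAR sum in all cultures, whereas the Thra share of the thyroid hormone receptors runs from 38.8% to 69.2% and is lowest in WT replicate 10 and Ucp1-KO replicate 13.

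The vitamin D receptor showed the largest difference of all receptors tested. Vdr (reverse strand of chromosome 15, 97854425 to 97910630) had 2.80, 3.21 and 2.55 RPKM in WT and 2.47, 1.11 and 0.628 RPKM in Ucp1-KO cultures. These values rested on 208, 233 and 197 reads against 174, 83 and 41 reads. All Ucp1-KO cultures were below all WT cultures, although replicate 13 came within the spread of the WT cultures of their lowest value (exact two-sided permutation test, p = 0.10). The Ucp1-KO mean was 49.2% of the WT mean, and the log2 fold change was -0.75 (standard error 0.27, unadjusted p = 0.0276, limma adjusted p = 0.868), or -1.22 with limma-voom on the recovered reads. It was -0.51 without replicate 15 and -1.05 without replicate 13. With median-of-ratios scaling, Vdr no longer separated the genotypes. Of the enzymes that activate or degrade its ligand, Cyp27b1 and Cyp24a1 stayed below the minimum in all cultures.

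Stromal and preadipocyte markers are genes of the connective tissue cells from which adipocytes are derived. Of 10 such markers 9 were tested, and 0 passed at an adjusted p below 0.05 (limma, lowest adjusted p = 0.868). Among these markers, Lum was called by the study with DESeq2, as lower in Ucp1-KO cells. At an unadjusted p below 0.05 there were 2, Dcn and Lum, both lower in Ucp1-KO cells, against 3.24% of all transcripts, and 3 lay lower without overlap of genotypes, against 5.15%. All 9 had negative log2 fold changes, with a median of -0.52, which was -0.28 with 1 unadjusted call without WT replicate 11 and -0.84 with 5 without WT replicate 10. There was 1 such call without WT replicate 12 and 4 without Ucp1-KO replicate 13. Their summed level was 744, 1707 and 1033 RPKM in WT and 1003, 924 and 631 RPKM in Ucp1-KO cultures, most of it from the collagens Col3a1 and Col1a1, and the genotypes overlapped. The markers did not share 1 order of cultures. Pdgfrb, a growth factor receptor of perivascular and stromal cells, had 25.6, 26.4 and 21.5 RPKM in WT and 25.2, 14.6 and 12.7 RPKM in Ucp1-KO cultures. Replicate 13 lay within the WT range. Lum, a proteoglycan of connective tissue, had its lowest level, 1.31 RPKM, in replicate 13 and the lowest log2 fold change of the list (-1.20, standard error 0.41). Ly6a, a surface protein of stromal progenitors, had its highest level, 200 RPKM, in replicate 14 and the highest log2 fold change (-0.08, standard error 0.49). The part of stromal cells in the difference of Vdr was not tested.

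Nr2f2, which encodes the orphan receptor COUP-TFII of mesenchymal and venous cells, also lay lower in Ucp1-KO cells. It had 3.86, 4.52 and 3.96 RPKM in WT and 3.82, 3.47 and 2.14 RPKM in Ucp1-KO cultures. The genotypes were apart by the margin between 3.86 and 3.82 RPKM, and replicate 15 accounted for most of the log2 fold change of -0.33 (standard error 0.18), which was -0.14 without it. Taken as the sum of its RefSeq transcripts, or with median-of-ratios scaling, Nr2f2 overlapped. Its relatives did not separate the genotypes, with Nr2f1 at 2.16 ± 0.295 and 1.95 ± 0.270 RPKM and Nr2f6 at 20.7 ± 2.10 and 21.5 ± 0.634 RPKM (SD, n = 3 each). Nr2f6 shares 54.4% of its annotated exon bases with Ocel1 on the opposite strand, and the library kit does not record strand, so that reads of both genes cannot be told apart there.

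**Figure D4:**
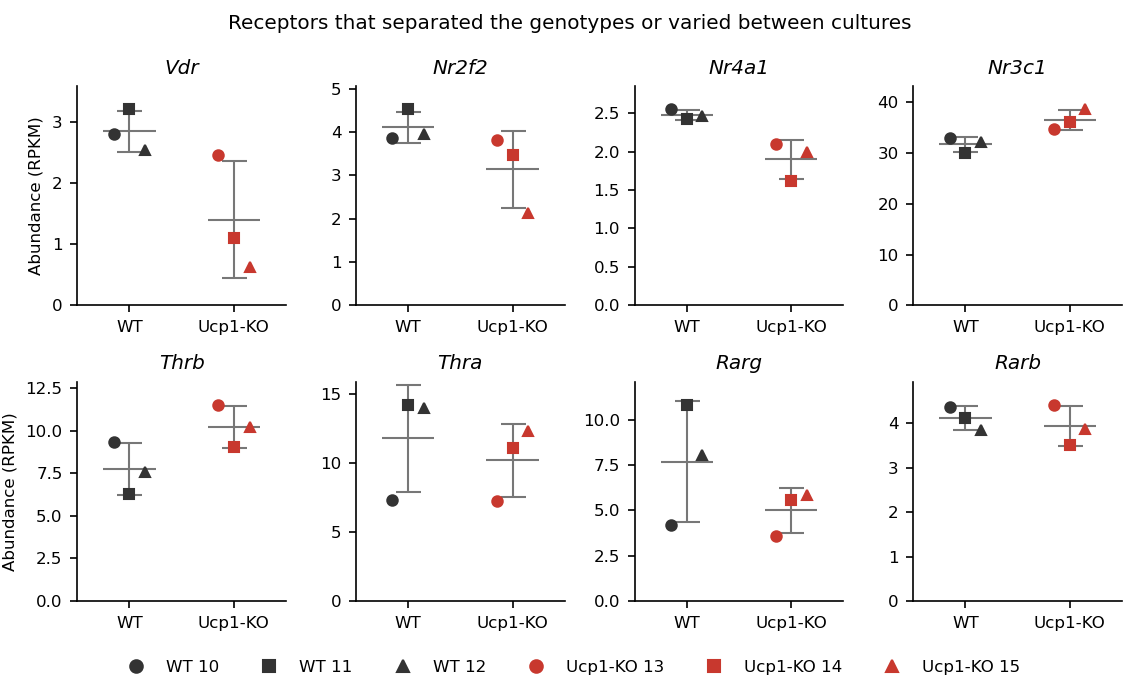
Abundance in RPKM of 8 receptors in each culture (symbols as named in the key), with the mean and SD of 3 cultures per genotype as grey lines. Vdr, Nr2f2 and Nr4a1 lie lower and Nr3c1 higher in all Ucp1-KO cultures, while Thra and Rarg are low in WT replicate 10 and Ucp1-KO replicate 13 alike.

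Nr4a1, the immediate early orphan receptor NUR77 that responds to adrenergic stimulation in fat, had 2.55, 2.42 and 2.46 RPKM in WT and 2.10, 1.62 and 1.99 RPKM in Ucp1-KO cultures. WT cultures agreed closely and all Ucp1-KO cultures were lower (log2 fold change -0.26, standard error 0.11, unadjusted p = 0.0512, limma adjusted p = 0.868). The value stayed between -0.31 and -0.19 with 1 culture left out. Nr4a2 was at the edge of the minimum, with 0.551 ± 0.0725 and 0.503 ± 0.112 RPKM (SD, n = 3 each), and Nr4a3 below it, with 48 reads in WT and 18 in Ucp1-KO cells.

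Nr3c1, the glucocorticoid receptor gene, was the 1 receptor higher in all Ucp1-KO cultures. It had 33.0, 30.1 and 32.1 RPKM in WT and 34.8, 36.2 and 38.6 RPKM in Ucp1-KO cultures. The difference was small but exceeded the spread within either genotype, with 31.7 ± 1.5 and 36.5 ± 1.94 RPKM (SD, n = 3 each), a log2 fold change of 0.20 (standard error 0.09, unadjusted p = 0.0546, limma adjusted p = 0.868) and values between 0.16 and 0.23 with 1 culture left out. The mineralocorticoid receptor gene Nr3c2 had 0.790 ± 0.201 and 0.867 ± 0.138 RPKM, so that Nr3c1 made up 97.6% of the corticoid receptor sum in WT cells. Hsd11b1, which activates glucocorticoids and was the most abundant of 7 genes of glucocorticoid, oxysterol and vitamin D supply, overlapped, with 13.9, 9.65 and 9.37 RPKM in WT and 12.6, 13.5 and 11.9 RPKM in Ucp1-KO cultures. In that list 4 genes were tested, with a median of -0.01 and 0 at an unadjusted p below 0.05, between -0.52 for Ch25h and 0.53 for Cyp27a1, both enzymes that hydroxylate cholesterol. Of 8 glucocorticoid receptor targets tested, 4 were positive and 4 negative, with a median of 0.00 and 1 at an unadjusted p below 0.05, against 5.54% of all transcripts. This was Ddit4, an inhibitor of mTORC1, with 35.9, 55.8 and 43.7 RPKM in WT and 21.8, 29 and 35.4 RPKM in Ucp1-KO cultures, lower in the latter without overlap (-0.64, standard error 0.22, limma adjusted p = 0.868). Mt2, a metallothionein with the lowest value (-1.18, standard error 0.51), ranged from 267 to 1766 RPKM between cultures, and Zbtb16 had the highest value (0.22, standard error 0.13).

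Thyroid hormone receptors were represented by both genes. Thrb (TRβ) had 9.36, 6.29 and 7.58 RPKM in WT and 11.5, 9.02 and 10.2 RPKM in Ucp1-KO cultures. The highest WT culture exceeded the lowest Ucp1-KO culture, and the log2 fold change of 0.37 (standard error 0.15) had an unadjusted p of 0.0485 and a limma adjusted p of 0.868. Thra (TRα) had 7.33, 14.2 and 14 RPKM in WT and 7.28, 11.1 and 12.3 RPKM in Ucp1-KO cultures, nearly equal in WT replicate 10 and Ucp1-KO replicate 13. Thra was low and Thrb high in these 2 cultures, so that Thra made up 43.9%, 69.2% and 64.8% of their sum in WT and 38.8%, 55.3% and 54.7% in Ucp1-KO cultures. Of 5 genes of thyroid hormone supply, 4 were tested with a median of -0.07. Dio3, which inactivates the hormone, had the lowest value (-0.57, standard error 0.35, but -0.20 without Ucp1-KO replicate 15 and -0.94 without replicate 13) and the transporter gene Slc16a10 the highest (0.21, standard error 0.18). The 4 thyroid hormone targets had a median of 0.13 and 0 at an unadjusted p below 0.05, from -0.39 (standard error 0.26) for Hr, a corepressor, to 0.51 (standard error 0.28) for Thrsp, a regulator of lipogenesis.

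Thra overlaps Nr1d1, the clock repressor REV-ERBα, tail to tail on chromosome 11, where the 2 genes share 263 exon bases on opposite strands. Nr1d1 had 12.8, 19.8 and 20.5 RPKM in WT and 14.4, 16.6 and 14.2 RPKM in Ucp1-KO cultures. WT replicate 10 was the lowest culture of all for it, and reads of the shared bases cannot be assigned to either gene. Rara lies 152 kb further on the same chromosome, and Rarb, Thrb and Nr1d2 lie in a similar row on chromosome 14, with gaps of 841 and 166 kb. Nr1d2 (REV-ERBβ), with 8.23 ± 0.993 and 9.43 ± 1.78 RPKM (SD, n = 3 each), made up 32.2% of the REV-ERB sum in WT cells. Of their competitors at the same DNA elements, Rora had 5.66, 5.57 and 6.85 RPKM in WT and 6.80, 7.19 and 7.13 RPKM in Ucp1-KO cultures, which overlapped as deposited and separated with median-of-ratios scaling, and Rorb had at most 51 reads in a culture. Of 5 REV-ERB targets tested, 1 was positive and 4 negative, with a median of -0.09. Clock, a core activator of the circadian clock, was higher in all Ucp1-KO cultures (0.26, standard error 0.10, unadjusted p = 0.0319, limma adjusted p = 0.868), and Nfil3, a clock-controlled repressor and the most abundant target, had the lowest value (-0.18, standard error 0.11). The median hides that Arntl, the partner of Clock, lay lower in all Ucp1-KO cultures (-0.17, standard error 0.11, limma adjusted p = 0.876).

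Retinoic acid receptors, which bind retinoic acid and pair with RXR, had low levels that overlapped between genotypes. Rarg had 4.19, 10.8 and 8.03 RPKM in WT and 3.59, 5.55 and 5.87 RPKM in Ucp1-KO cultures, a 3.02-fold range. WT replicate 10 and Ucp1-KO replicate 13 were again the lowest, as for 7 of the 31 receptors (22.6%) and 27.2% of all transcripts. The log2 fold change of -0.48 (standard error 0.31) was -0.81 without WT replicate 10, -0.21 without WT replicate 11 and -0.29 without Ucp1-KO replicate 13. Rara had 2.77, 5.40 and 4.13 RPKM in WT and 2.81, 3.30 and 2.54 RPKM in Ucp1-KO cultures, with overlap, and its log2 fold change of -0.36 (standard error 0.20) was -0.18 without WT replicate 11 and -0.57 without WT replicate 10. Rarb was steady, with 4.37, 4.12 and 3.84 RPKM in WT and 4.40, 3.51 and 3.87 RPKM in Ucp1-KO cultures (log2 fold change -0.06, standard error 0.11). Rarb shares 34.1% of its annotated exon bases with Top2b on the opposite strand.

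Rarb is a textbook target of its own receptor family through a direct repeat in its promoter, which is shown because the genes of retinoid supply are described next. The promoter is given on the reverse strand of GRCm38.p6 from RefSeq, with the direct repeat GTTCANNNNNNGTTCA and TTGCNNAA on either strand in capitals.
Rarb, chr14:16575427-16575726: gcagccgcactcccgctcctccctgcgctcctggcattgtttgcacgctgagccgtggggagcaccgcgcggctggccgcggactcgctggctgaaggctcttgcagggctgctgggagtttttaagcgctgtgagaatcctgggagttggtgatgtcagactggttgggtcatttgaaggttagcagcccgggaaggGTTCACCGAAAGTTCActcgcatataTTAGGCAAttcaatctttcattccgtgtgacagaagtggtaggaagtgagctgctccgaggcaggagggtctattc
The repeat reads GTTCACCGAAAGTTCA and lies from base -52 to -37 before the start, and the match to TTGCNNAA at -26 to -19 does not overlap it. Of 32851 promoters, 25 or 0.0761% held this repeat, and Rarb was the 1 receptor gene among them.

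Genes of retinoid supply were the list with the largest share of unadjusted calls among those of receptor function. Of 12 genes 8 were tested, and at an unadjusted p below 0.05 there were 4 lower and 0 higher in Ucp1-KO cells, against 3.24% and 2.30% of all transcripts, with 0 at an adjusted p below 0.05 and a median log2 fold change of -0.50. For 3 of them, all lower in Ucp1-KO cells, the genotypes did not overlap, against 5.15% of all transcripts. Aldh1a2, which makes retinoic acid, had 3.34, 15.8 and 4.21 RPKM in WT and 2.60, 1.36 and 0.265 RPKM in Ucp1-KO cultures (log2 fold change -1.71, standard error 0.58, limma adjusted p = 0.868), with the highest value in WT replicate 11, without which it was -1.11. Rdh10, which makes retinal, had 3.50, 9.09 and 5.75 RPKM in WT and 3.16, 2.88 and 2.79 RPKM in Ucp1-KO cultures. Aldh1a2 and Rdh10 were lower in each Ucp1-KO culture than in any WT culture, and highest in WT replicate 11, which also had the highest sum of stromal and of endothelial markers. Without WT replicate 11 the 4 unadjusted calls became 1, and without Ucp1-KO replicate 15, which had the lowest Aldh1a2, 0 remained among the lower genes. Cyp26b1, which degrades retinoic acid, was lower as well but overlapped (-0.46, standard error 0.18). Aldh1a1, the other abundant retinal dehydrogenase, had the highest value (0.40, standard error 0.25). Rbp4, the secreted retinol carrier and by far the most abundant, had 918, 1359 and 1361 RPKM in WT and 402, 1060 and 1316 RPKM in Ucp1-KO cultures. The part of stromal cells in these differences was not tested.

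**Figure D5:**
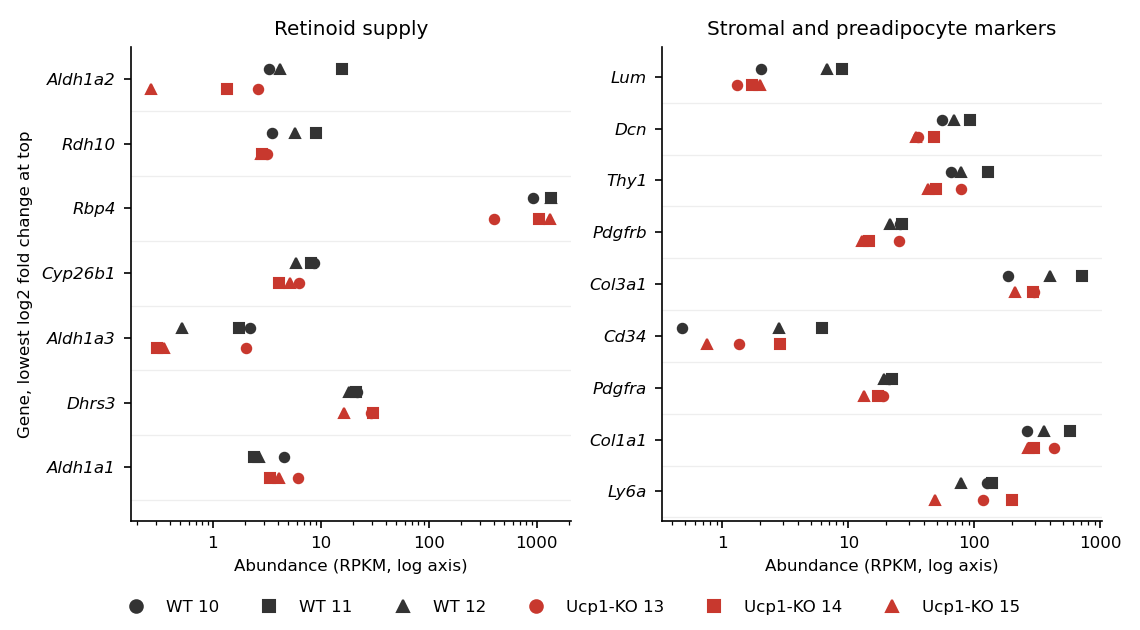
Abundance in RPKM (log axes) of 7 genes of retinoid supply and 9 stromal and preadipocyte markers in each culture (WT in dark grey, Ucp1-KO in red), ordered by log2 fold change. Aldh1a2, Rdh10, Lum, Dcn and Pdgfra are lower in all Ucp1-KO cultures, and replicate 15 is the lowest for Aldh1a2 at 0.265 RPKM.

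Coregulators are the proteins through which receptors act on transcription. All 12 coactivators were tested, 10 with positive and 2 with negative values, a median log2 fold change of 0.10, 0 at an unadjusted p below 0.05 and 1 without overlap. This was Crebbp, a histone acetyltransferase, with 3.86, 3.25 and 3.77 RPKM in WT and 4.28, 4.03 and 4.61 RPKM in Ucp1-KO cultures. Ppargc1a, the PGC-1α partner of PPAR and ERR, had the highest value of the coactivators (0.38, standard error 0.26, but 0.13 without WT replicate 11 and 0.64 without WT replicate 10), with 15.5, 7.12 and 10.5 RPKM in WT and 14.7, 11.8 and 16 RPKM in Ucp1-KO cultures. Carm1, a methyltransferase, was the most abundant and had the lowest value (-0.17, standard error 0.11). All 9 corepressors were tested, with a median of -0.04, 0 at an unadjusted p below 0.05 and 0 without overlap, from -0.17 (standard error 0.11) for the deacetylase Hdac3 to 0.22 (standard error 0.16) for Lcor. Over the 11 lists of receptor function, 85 genes were tested, 10 or 11.8% had an unadjusted p below 0.05, against 5.54% of all transcripts, and 12 or 14.1% did not overlap between genotypes, against 11.2%. None passed at an adjusted p below 0.05.

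Sex steroid receptors were scarce. Esr1, the estrogen receptor ERα, had 1.84, 1.80 and 1.74 RPKM in WT and 1.78, 3.22 and 2.66 RPKM in Ucp1-KO cultures, of which replicate 13 lay within the WT range. Its log2 fold change of 0.32 (standard error 0.17) was 0.19 without replicate 14 and 0.49 without replicate 13. Esr2 and Pgr, the genes of ERβ and the progesterone receptor, had at most 4 and 22 reads in a culture. The orphan receptors Nr2c1 and Nr2c2, repressors of the same direct repeats that PPAR and RAR use, had 5.83 ± 0.187 and 5.03 ± 0.362 RPKM in WT against 5.40 ± 0.550 and 4.96 ± 0.636 RPKM in Ucp1-KO (SD, n = 3 each), and Nr2c2 shares 30.7% of its exon bases with Mrps25. Nr6a1, an orphan receptor of germ cells and embryos, had 1.24 ± 0.320 and 1.48 ± 0.455 RPKM. Nr1i3, the xenobiotic receptor CAR, was counted on 10 to 29 reads a culture, and 74.9% of its exon bases overlap Tomm40l.

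Receptors of liver, gut, steroid-making glands and retina were at or near 0. Hnf4a, Hnf4g, Nr2e3, Nr5a1, Nr0b1 and Nr0b2 had 0 reads in each of the 6 cultures. The 3 reads that a count of 0 allows correspond to between 0.0388 RPKM for the long Hnf4a in the deepest and 0.177 RPKM for the short Nr0b2 in the shallowest library, which covers counting error alone. The bile acid receptor gene Nr1h4 had 12 reads in WT and 2 in Ucp1-KO cells in total, with no overlap of RPKM values but too few reads for the comparison. Nr5a2, Nr1i2 and Nr2e1 had at most 3 reads in any culture.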

How the data were processed

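Libraries of total RNA (TruSeq kit v2) gave single reads 50 bases long. In the Genomatix software, the authors aligned these with mouse build 38 and counted unique reads per annotated transcript, and they deposited RPKM values. The submitters' processing notes name CASAVA and bcl2fastq. All 6 value columns matched a culture by name, and 0 columns were left unmapped.

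The 16865 RefSeq transcripts averaging 0.5 RPKM or more entered limma 3.58.1 (R 4.3.3) with an intensity trend on log2(RPKM + 1) and no covariates, with p-values adjusted by the Benjamini-Hochberg method and a threshold of 0.05. Single values were compared by exact two-sided permutation tests (Python 3.11.15, scipy 1.17.1, numpy 2.4.6, pandas 2.3.3, matplotlib 3.10.9). Library totals were recovered from the RPKM values and Ensembl transcript lengths. With these, 93.58% to 93.74% of the Ensembl values checked were whole reads within a tolerance of 0.05 reads. The length of each RefSeq transcript was then chosen so that its reads were whole in all cultures. Such a length was found for 100.0% of the transcripts tested, which is no separate check of the reads. Totals, reads and calls were tested on simulated data. Reads carry no molecular identifiers, so that floors of 3 reads cover counting error only. The closest cultures of a genotype differed by a chi-square of 12 per transcript, so each was counted as a separate sample. Positions and exon overlaps are from GENCODE M21 on GRCm38, and promoters from RefSeq on GRCm38.p6. Shares of exon bases are over all annotated transcripts of a gene.

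The receptors and the gene lists were chosen with earlier results of these data known. All receptors are named, and from each list the most abundant gene in WT and those with the lowest and highest log2 fold change. Results of some listed genes are not reported here. Other listed genes were picked with their values in view. Alternatives were 0.1 RPKM added, no minimum, 1 transcript per gene, all annotations, median-of-ratios scaling, limma-voom on recovered reads, summed RefSeq rows, other thresholds and leaving out each culture. Leaving out cultures for the counts at an unadjusted p was chosen after the data were seen. Protein and flux data were not analysed here.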

Additional observations from a re-analysis of the deposited data

How the results depend on the processing

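No paired analysis was run, because the labels name no pairs between WT (10 to 12) and Ucp1-KO cultures (13 to 15). Whether cultures of both genotypes were prepared in parallel cannot be told from the labels. WT replicate 10 and Ucp1-KO replicate 13 held the 2 lowest values for 27.2% of all transcripts, and a shared preparation was not tested. Calls at an adjusted p below 0.05 were 0 for receptors and listed genes in every fit run, and for all transcripts in each but the fit with no minimum abundance, which called 22. At an unadjusted p below 0.05 there were 935 transcripts and 2 receptors. The median log2 fold change of the receptors lay between 0.02 and 0.05 with 1 culture left out. Isotype shares without overlap numbered between 1 and 9 with 1 culture left out, 9 without WT replicate 10, 6 without Ucp1-KO replicate 13 and 3 without WT replicate 12 or Ucp1-KO replicate 15, where groups of 2 against 3 separate more easily.

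Of 31 receptors, 21 kept the sign of their log2 fold change in every fit, and 10 changed it when 1 culture was left out, with ranges of -0.01 to 0.23 for Nr1h3, -0.19 to 0.11 for Rxrb, -0.45 to 0.04 for Thra, -0.02 to 0.17 for Rxra, -0.10 to 0.06 for Nr2c2, -0.03 to 0.28 for Nr1i3, -0.10 to 0.01 for Nr4a2, -0.12 to 0.01 for Rarb, -0.01 to 0.25 for Nr6a1 and -0.001 to 0.13 for Nr2f6. Another 16 receptors kept the sign but moved by more than 1.5 times when some culture was left out. Of 85 listed genes of receptor function tested, 51 moved by more than 1.5 times with the same sign and 23 changed sign, in an alternative chosen after seeing the data. The cause was not tested. Other alternatives changed the sign of 0 receptors. The number of receptors without overlap was 3 with median-of-ratios scaling (Nr3c1, Rora and Nr4a1), 3 with summed RefSeq rows and 5 over all 46 genes. The leading 10 receptors in WT were the same 10 genes under every way of ranking tried. At 3 cultures per genotype, differences of the size seen here for most receptors, with a median absolute log2 fold change of 0.17 and a median standard error of 0.15, could not be resolved.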
